A study of Amaranthus palmeri with 48 samples.

Results

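In leaves of the weed Amaranthus palmeri (Palmer amaranth), 39 gene models had lower RNA 6 h after 2,4-D and mean changes within set limits after atrazine, chlorsulfuron and lactofen. They were chosen from 26353 models by their measured values, so their change after those 4 herbicides is a description. Counts of members called in those responses stand beside the share over all genes, nothing is read from them, and no p-value of a single member is given for them. A member had a level of at least 1 CPM (its count scaled to the library's total) in each of 18 untreated libraries and an untreated mean under 1000 CPM. For each herbicide, the mean of log2(CPM + 1) in treated leaves minus that in untreated leaves of the same batch and line was averaged over a resistant and a susceptible line, and is called the mean change below. Members had a mean change of at most -0.6 for 2,4-D and between -0.5 and 0.5 for each of the other 3. Libraries of mesotrione, the fifth herbicide of the study, played no part in the choice, but the untreated libraries they are set against did. All 39 are mRNA models, and all 39 passed the filter on low counts, as did 20645 models in all. Their identifiers, printed here without the ending -mRNA-1, come with no gene names or descriptions here. Their products are therefore not given, and the identity of the tissue could not be checked against leaf marker genes.

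2,4-D is a synthetic form of the plant hormone auxin. Auxin binds TIR1/AFB receptors, which send Aux/IAA repressor proteins to breakdown and so release auxin response factors to act on their target genes. In broadleaf plants a lasting excess of auxin signal leads to twisted growth, ethylene and abscisic acid production, a fall in photosynthesis and death. Atrazine blocks electron flow through photosystem II, chlorsulfuron blocks acetolactate synthase, lactofen blocks protoporphyrinogen oxidase, and mesotrione blocks 4-hydroxyphenylpyruvate dioxygenase.

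The labels give leaf tissue, a Resistant or a Susceptible phenotype (here the resistant and the susceptible line), a treatment and a batch. Batch 1 held 2,4-D, mesotrione and untreated plants, batch 2 held atrazine, chlorsulfuron and untreated plants, and batch 3 held lactofen and untreated plants. Each of the 16 groups had 3 libraries, named by plant numbers that recur across treatments. The labels do not say whether libraries of 1 number came from 1 plant, and p-values measure the spread between these libraries. Totals ran from 16583010 to 72979429 counts, and the untreated resistant libraries of batch 1 held 72979429 (plant 5), 19414318 (plant 7) and 25739390 (plant 8). By 62 genes that were on in some plants of batch 1 and off in others, 15 of 18 batch 2 libraries matched their own plant number best. The 3 susceptible libraries numbered 7 in batch 2 matched plant 6 at 100% of these genes and their own number at 50%, so they went against their number. Without these 3 libraries the rule chose 41 genes, 35 of them members. Without them edgeR called as many members in every atrazine and chlorsulfuron comparison of single lines or of their difference. Some other values that use them are given both ways below. The rest are given with these libraries only, among them group SDs, unadjusted p counts, the mean of both lines and untreated line differences.

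Lower RNA after 2,4-D with small mean changes after the other herbicides was an uncommon combination. Of 14303 genes that met the limits on untreated leaves, 1204 had a mean change of at most -0.6 after 2,4-D. Among these 1204, 541 genes (44.9%) had a mean change of -0.5 or lower after all 3 of atrazine, chlorsulfuron and lactofen. The atrazine limit left 247 of the 1204, the chlorsulfuron limit left 73 of those, and the lactofen limit left the 39 members. Whatever their change after 2,4-D, 1999 of the 14303 genes were within these 3 limits, so the limits alone left a small part of them. The mean change of the 39 after 2,4-D ran from -1.14 to -0.60 with a median of -0.71, against a median of 0.06 over the 14303 genes.

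The limits cut through a continuous range. Just inside the limit for 2,4-D was AmaPaChr06Ag112320 at -0.6046, and just outside was AmaPaChr01Ag002400 at -0.5982. Just inside and just outside the atrazine limit were AmaPaChr01Ag014570 at -0.4993 and AmaPaChr01Ag014620 at -0.5006. By absolute value, the closest to the chlorsulfuron limit were AmaPaChr10Ag176040 inside at -0.4972 and AmaPaChr02Ag037310 outside at 0.5051, on opposite sides of 0. The closest to the lactofen limit were AmaPaChr07Ag121330 inside at -0.45 and AmaPaChr04Ag078670 outside at -0.55.

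Within those limits the members leaned to 1 side for each herbicide. After atrazine, 36 of 39 mean changes were below 0, with a median of -0.34, against 7820 below 0 and a median of -0.09 over the 14303 genes. After chlorsulfuron 31 were above 0, with a median of 0.32, against 8246 above 0 and a median of 0.14 over those genes. After lactofen 28 were above 0, with a median of 0.17, against 6785 above 0 and a median of -0.08 over those genes. Without the 3 libraries numbered 7 the medians were -0.35 after atrazine and 0.29 after chlorsulfuron. The members were therefore mostly lower after atrazine as well, by less than the limit, and are described here by the rule and not as genes that responded to 2,4-D alone. After mesotrione 29 were below 0, with a median of -0.13, against 5835 below 0 and a median of 0.05 over the 14303 genes. The mesotrione values share their untreated libraries with the 2,4-D values, so they are not independent of the choice.

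**Figure D1:**
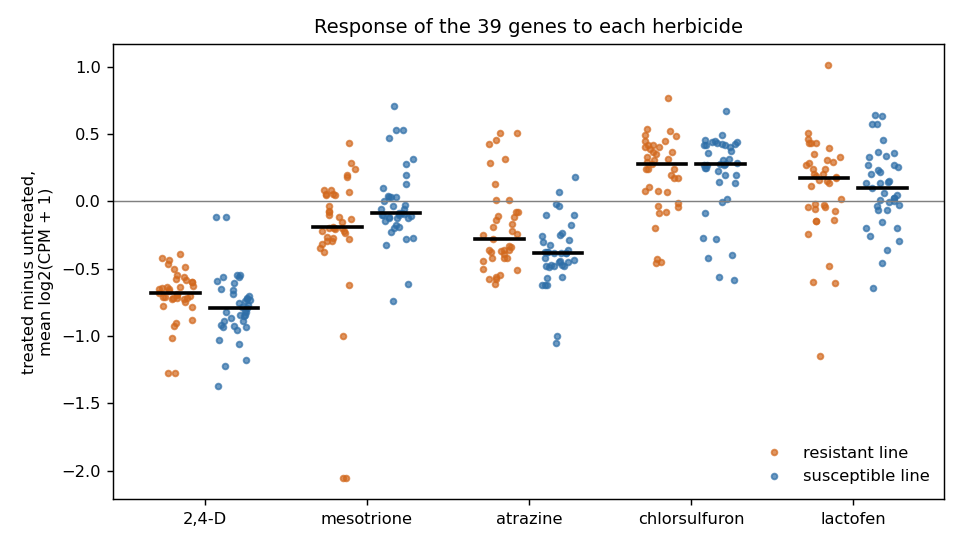
Mean change of each of the 39 members (log2(CPM + 1), treated minus untreated leaves of the same batch and line) after each of the 5 herbicides, with the resistant and the susceptible line apart and a bar at each median. The 2,4-D values were set by the choice of members. The mesotrione values, with a median of -0.13 over both lines, were not used for it, but the batch 1 untreated libraries in them were.

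Levels printed from here on are CPM with library sizes scaled by TMM factors, which lessen the effect of a few abundant transcripts on a library's total. CPM is not corrected for transcript length, so levels are compared between libraries and not between genes. Over the 18 untreated libraries the members' mean levels ran from 3.00 to 451 CPM, with a median of 98.4, in CPM before that scaling.

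AmaPaChr02Ag039440 had the lowest mean change after 2,4-D among members with at least 5 CPM in the batch 1 untreated leaves. In resistant leaves it was at 4.64, 13.1 and 5.04 CPM in untreated plants 5, 7 and 8 and at 3.50, 3.22 and 2.51 CPM after 2,4-D. In susceptible leaves it was at 5.62, 29.5 and 14.6 CPM in untreated plants 5, 6 and 7 and at 4.38, 6.56 and 2.88 CPM after 2,4-D. The resistant groups did not overlap, and the susceptible groups did, because untreated plant 5 was below treated plant 6. The fitted log2 change was -1.29 ± 0.63 (SE, n = 3 per group) in the resistant and -1.85 ± 0.64 in the susceptible line. Its level varied widely elsewhere too, with 18.0, 4.01 and 17.1 CPM after lactofen in resistant leaves and 14.8, 1.44 and 26.1 CPM in susceptible leaves.

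AmaPaChr03Ag063050 was next and far more uniform among treated plants. After 2,4-D it was at 91.8, 93.5 and 95.4 CPM in resistant leaves and at 76.4, 79.5 and 81.8 CPM in susceptible leaves. Untreated leaves of the same batch held 91.6, 328 and 195 CPM in resistant plants 5, 7 and 8 and 156, 166 and 212 CPM in susceptible plants 5, 6 and 7. Untreated resistant plant 5 was thus at the level of the treated plants, and every other untreated plant of batch 1 was above them. The log2 change was -1.13 ± 0.26 (SE, n = 3 per group) in the resistant and -1.17 ± 0.26 in the susceptible line. Without untreated resistant library 7 it was -0.63 in the resistant line. These 2 members were picked for their low values in these libraries, so their changes are descriptions.

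The same gene shows how much untreated leaves differed between batches. AmaPaChr03Ag063050 was at 208 ± 24.8 CPM (SD, n = 3) in untreated resistant leaves of batch 2 and at 125 ± 20.4 CPM in those of batch 3. In untreated susceptible leaves it was at 172 ± 16.2 and 106 ± 19.5 CPM. The 2,4-D libraries lay below every untreated library of batches 2 and 3 in the susceptible line, where the lowest was 92.6 CPM, and in the resistant line, where the lowest was 108 CPM. After mesotrione it was at 214 ± 26.5 CPM in resistant and 159 ± 26.8 CPM in susceptible leaves.

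**Figure D2:**
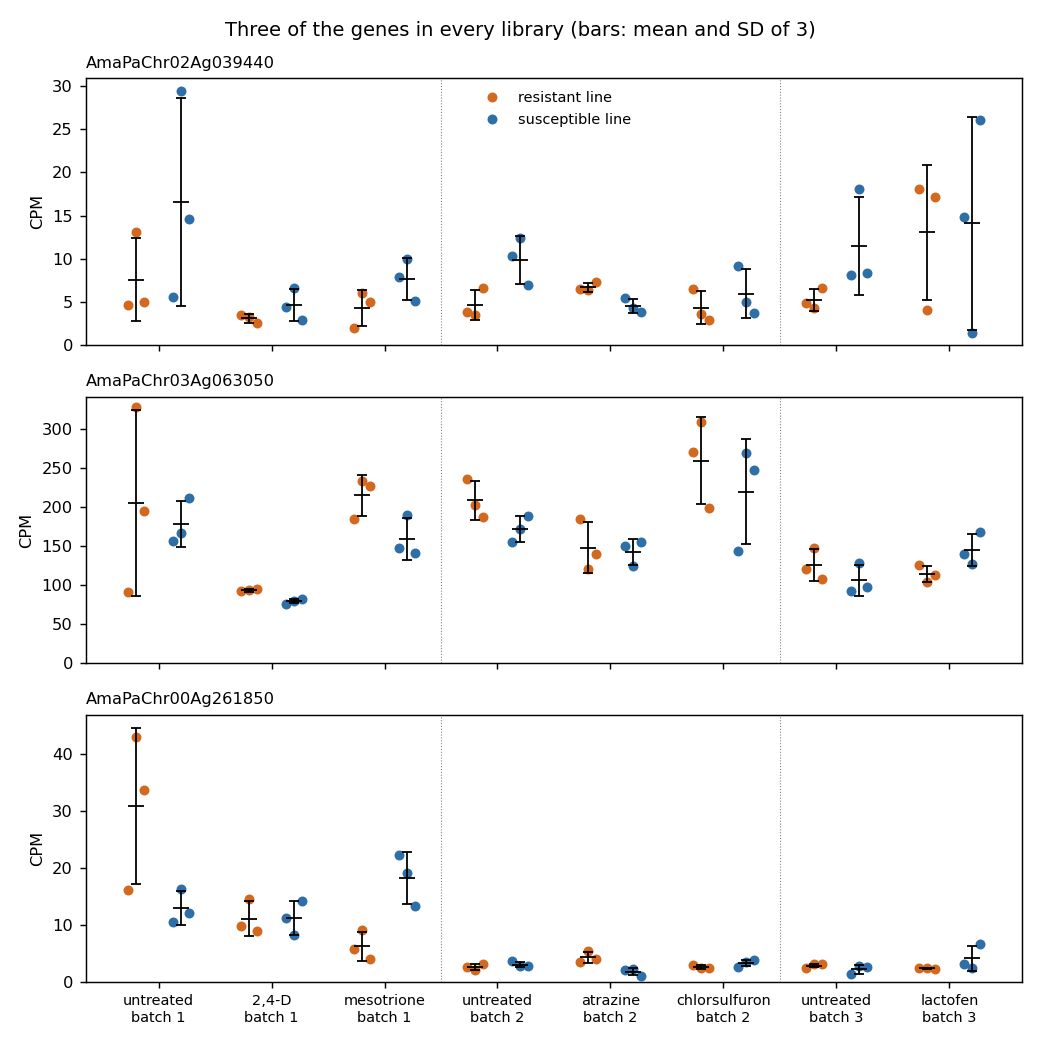
Level (CPM with TMM-scaled library sizes) of AmaPaChr02Ag039440, AmaPaChr03Ag063050 and AmaPaChr00Ag261850 in every library, by treatment and batch on the horizontal axis, with 1 point per library, colours for the lines, and bars for the mean and SD of 3 libraries. AmaPaChr03Ag063050 lies between 76.4 and 95.4 CPM in the 6 libraries after 2,4-D, and the only untreated batch 1 library in that range is resistant plant 5 at 91.6 CPM.

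Plant by plant, most members were lower after 2,4-D. The rule set the mean difference of these same libraries, so the counts in this paragraph are a description. Each treated library was set against the untreated library of the same plant number. Resistant plants 7 and 8 and susceptible plant 6 had less RNA of all 39 members after 2,4-D, and susceptible plants 5 and 7 had less of 37. In resistant plant 5, 34 were lower, with a median log2 difference of -0.32, against medians of -1.13 in plant 7, -0.68 in plant 8 and -0.76 to -0.93 in the susceptible plants. Among the members 32 were lower in all 6 plants, 5 in 5 plants and 2 in 4 or fewer. Of all genes tested 46.1% to 51.0% were lower in a single plant, and 16.2% were lower in all 6 plants. All 3 treated libraries were below all 3 untreated libraries for 17 members in the resistant line (10.1% of all genes tested) and for 34 in the susceptible line (14.9%).

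The edgeR quasi-likelihood test, with Benjamini-Hochberg adjustment over 20645 genes, called 11 members lower in resistant leaves (0.843% of all genes tested) and 20 in susceptible leaves (1.69%). Both lists held 8 members, which is 72.7% of the resistant and 40% of the susceptible list, and 16 members were on neither. The overlap of the lists over all genes tested is not given here, so nothing is read from these shares. A fit that blocked on the plant number called 19 (1.81% of all genes tested) and 32 (4.06%). The mean response of both lines was called lower for 35 members (7.65%). The rule used these contrasts, so nothing is read from the counts. The median log2 change of the members was -0.80 in the resistant and -0.92 in the susceptible line, against -0.02 and -0.03 over all genes tested.

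Single libraries moved the resistant count, and the share over all genes tested moved with it. The count was 25 (2.70% of all genes tested) without untreated library 5, 0 (0.0716%) without untreated library 7 and 3 (0.219%) without untreated library 8. It was 0 (0.0859%), 5 (0.148%) and 2 (0.181%) without 2,4-D libraries 5, 7 and 8. The susceptible count was 2 (0.296%) and 11 (0.936%) without untreated libraries 7 and 6, and 4 (0.434%), 7 (0.410%) and 12 (0.811%) without 2,4-D libraries 5, 6 and 7.

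**Figure D3:**
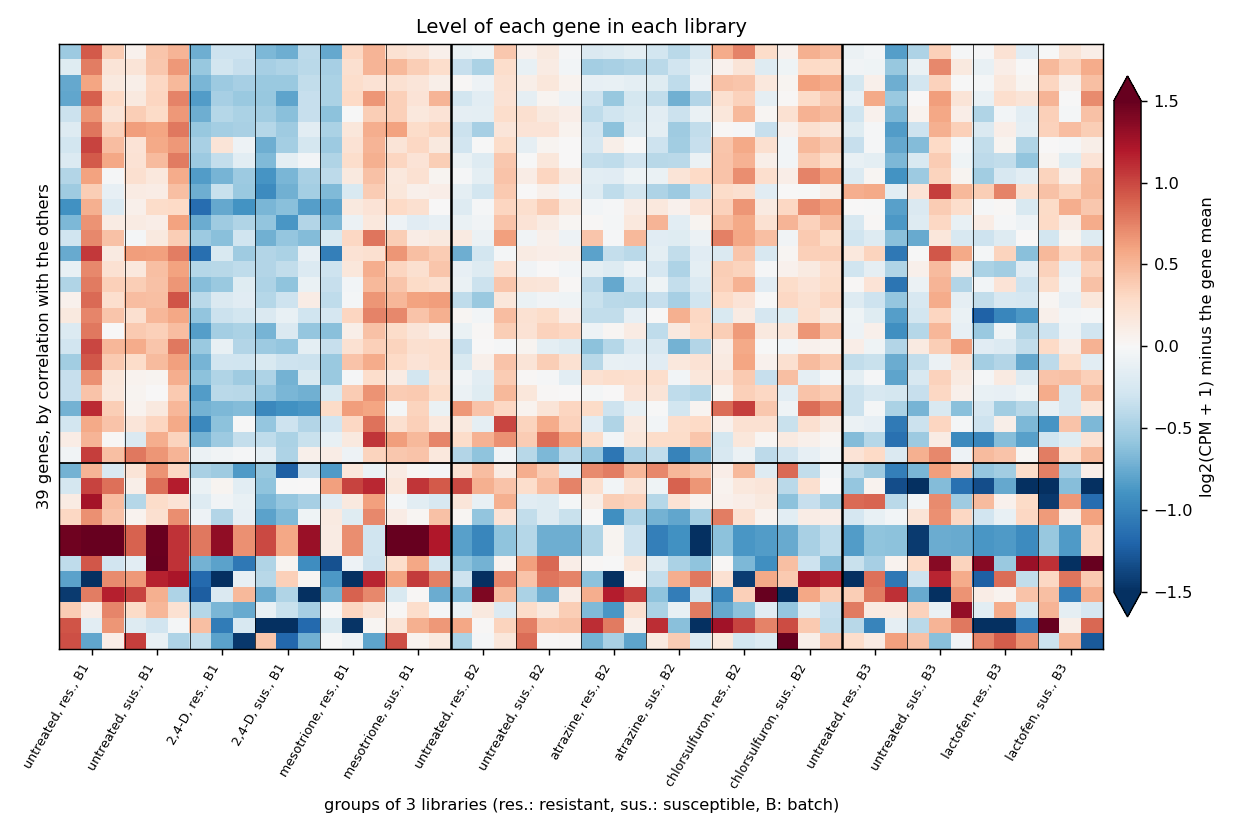
Level of each of the 39 members (rows, by their correlation with the other members) in each of the 48 libraries (columns, by batch, treatment and line), as log2(CPM + 1) minus the member's mean, with red for higher and blue for lower. Above the horizontal line are the 27 members with a correlation of 0.5 or more, and most of these are low in the 2,4-D columns and in the untreated and mesotrione columns of resistant plant 5, the leftmost column of each of those groups in batch 1.

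The untreated leaves of batch 1 enter every 2,4-D and mesotrione response, so the members' levels in them were set beside other libraries. The median over members of log2(CPM + 1), relative to each member's mean, lay between -0.62 and -0.35 in the 6 libraries after 2,4-D. In the 18 untreated libraries it ran from -0.67 to 0.76. The 3 untreated resistant libraries of batch 1 were far apart, at -0.29 for plant 5, 0.76 for plant 7 and 0.36 for plant 8, and plant 5 was also the library with the most counts. The mesotrione library of resistant plant 5 was at -0.39, in contrast with 0.17 and 0.51 in plants 7 and 8. Of the 18 untreated libraries 1, resistant plant 8 of batch 3 at -0.67 with the TMM factor 0.643, reached the level of the 2,4-D libraries. The part of depth, scaling or plant in these values was not tested beyond the counts given without single libraries.

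**Figure D4:**
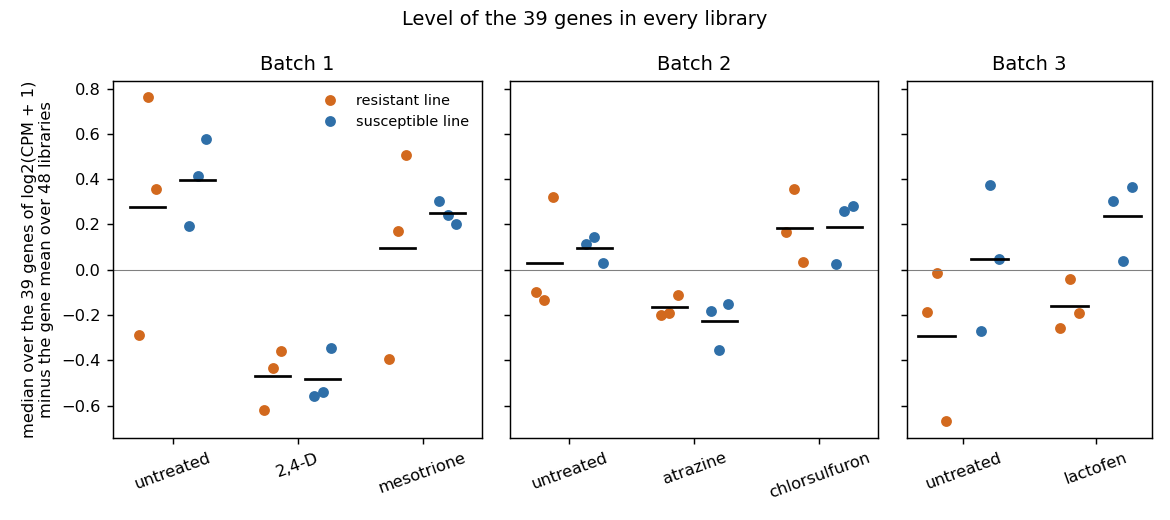
Median over the 39 members of log2(CPM + 1) minus the member's mean over 48 libraries, with 1 point per library and a line at the mean of each group, by treatment, batch and line. The 2,4-D libraries lie between -0.62 and -0.35, and the untreated libraries spread from -0.67 to 0.76.

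Untreated leaves of batch 1 had more of the members' RNA than those of the other batches. The median difference between batch 1 and batch 2 was 0.18 on the log2 scale in the resistant line, with 27 of 39 members higher in batch 1, and 0.26 in the susceptible line, with 34 higher (0.22 and 33 without the library numbered 7). Against batch 3 it was 0.51 with 36 higher and 0.32 with 34 higher. Over all genes tested the median for batch 1 against batch 2 was 0.00. A selection for low values relative to batch 1 controls favours genes that are high in those controls, so these differences are a description.

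The 2,4-D libraries were also set against the untreated leaves of batches 2 and 3. The members were chosen for low values in these same 2,4-D libraries, and the rule used those controls for its other limits, so the differences are a description and no support. Against batch 2 controls the median log2 difference was -0.55 in resistant leaves, with 36 of 39 members lower, and -0.58 in susceptible leaves, with 36 lower, also without the library numbered 7. Against batch 3 controls it was -0.18 with 30 lower and -0.56 with 35 lower. In CPM without TMM scaling, the scale of the rule, these last medians were 0.11 and -0.21, so the resistant one turned its direction with the scaling. Batch and treatment cannot be told apart in these differences. With batch 2 controls in place of batch 1 controls, the rule chose 64 genes, among them 16 of the 39 members (41.0%). Among the 8 groups of a line, the 2,4-D group had the lowest mean level for 23 members in the resistant and for 28 in the susceptible line.

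Mesotrione and 2,4-D leaves shared a batch and can be set against each other without the untreated leaves. The members were lower after 2,4-D than after mesotrione by a median log2 difference of -0.49 in resistant leaves, where 36 of 39 were lower, and of -0.74 in susceptible leaves, where all 39 were lower. All 3 libraries after 2,4-D lay below all 3 after mesotrione for 12 members in the resistant line (15.3% of all genes tested) and 33 in the susceptible line (16.3%). The 2,4-D libraries chose the members, so no test is given.

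The change after mesotrione itself lay nearer 0. The median fitted log2 change against untreated leaves was -0.23 in the resistant line, with 32 of 39 below 0, and -0.17 in the susceptible line, with 30 below 0. As differences of log2(CPM + 1), used against batch 2 below, the medians were -0.23 with 27 below 0 and -0.16 with 30 below 0. Against the untreated library of the same number, 27, 36 and 10 members were lower in resistant plants 5, 7 and 8. In susceptible plants 5, 6 and 7 it was 14, 29 and 34. Of all genes tested 45.9% to 52.8% were lower in a single plant. These responses use the same batch 1 controls as the 2,4-D responses, for which the members were chosen to be low, so both move with the levels in those controls. Against batch 2 controls the mesotrione libraries differed by medians of 0.04 in the resistant and 0.10 in the susceptible line (0.12 without the library numbered 7). In the edgeR test 2 members fell in resistant leaves (0.203% of all genes tested), and none passed in susceptible leaves (0%). For the susceptible line 0 members had an unadjusted p under 0.05 (3.66% of all genes tested). For the mean of both lines 5 did (12.8% of members, 6.77% of all genes tested), with none called by edgeR (0.0678%) and 2 called without untreated resistant library 5. Those 5 include the 2 members that fell in resistant leaves, whose counts were equal in all 48 libraries, so the pair is 1 measurement. DESeq2 called none for the mean of both lines and none in the susceptible line. All 3 treated libraries were below all 3 untreated ones for 2 members in the resistant (5.07%) and 5 in the susceptible line (5.84%).

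The 2 members that fell after mesotrione in resistant leaves, AmaPaChr00Ag261850 and AmaPaChr00Ag262320, had identical counts in all 48 libraries and are treated as 1 measurement. Counts of this kind cannot tell which model the reads came from, and 4.65% of models with a count shared all their counts with another model. AmaPaChr00Ag261850 was at 16.0, 43.1 and 33.7 CPM in untreated resistant plants 5, 7 and 8 of batch 1 and at 5.74, 9.01 and 4.01 CPM after mesotrione. In susceptible plants 5, 6 and 7 it was at 10.5, 16.3 and 12.1 CPM untreated and at 22.4, 19.1 and 13.3 CPM after mesotrione. The resistant groups did not overlap, and the susceptible groups did.

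The fitted log2 change of AmaPaChr00Ag261850 after mesotrione was -2.30 ± 0.37 (SE, n = 3 per group; edgeR adjusted p = 0.000412) in resistant leaves, and the call held in each of 6 fits that left out 1 of these libraries. The response of the resistant line minus that of the susceptible line was -2.80 ± 0.51 with an edgeR adjusted p of 0.00407. That difference was called in 12 of 12 fits that left out 1 library, and not when batch 1 was fitted alone (edgeR adjusted p = 0.0916). Of all genes tested 0.126% were called in this comparison. The batch 1 untreated leaves in this test also set the 2,4-D value by which the model was chosen, so the test is not independent of the choice. After 2,4-D this model was at 9.71, 14.6 and 8.98 CPM in resistant and 11.3, 8.27 and 14.2 CPM in susceptible leaves. Untreated leaves of the other batches held far less of it, between 1.30 and 3.59 CPM in their 12 libraries.

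The line difference of the 2,4-D response was not used in choosing the members. None of the 39 was called in it, as was none of all genes tested (0%), and DESeq2 called no member either. At an unadjusted p under 0.05 there were 2 (5.13% of members, 1.02% of all genes tested), the pair of models with identical counts. The differences, resistant minus susceptible, ran from -1.28 to 0.79 with a median of 0.13. For AmaPaChr03Ag063050 the difference was 0.04 ± 0.37 (SE, n = 3 per group) and for AmaPaChr02Ag039440 it was 0.55 ± 0.88. Both standard errors are large against the differences, so unequal responses of the lines could have gone uncalled.

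After atrazine and chlorsulfuron edgeR called no member in either line, where 31.9% (resistant) and 35.9% (susceptible) of all genes tested were called after atrazine and 26.6% and 33.1% after chlorsulfuron. The limits on the mean change set these low counts. At an unadjusted p under 0.05 there were 3 members in each line after atrazine (7.69%), where 41.5% and 44.1% of all genes tested were, and 0 in each line after chlorsulfuron, against 37.6% and 42.3%. For the mean of both lines, which the limits bound, edgeR called 1 member lower after atrazine (23% of all genes tested). After chlorsulfuron it called 3, of which 1 was higher and 2 lower (46.6% in either direction). In the susceptible line 21 members nonetheless had all 3 atrazine libraries below all 3 untreated ones, against 24.9% of all genes tested, and 9 did in the resistant line (23.9%). For 15 members the atrazine library was below the untreated library of the same number in all 6 plants (25.3% of all genes tested). Without the libraries numbered 7 of the susceptible line, 26 members had both atrazine libraries below both untreated ones there (28.6%), and 17 were lower in the 5 plants left (26.2%). No member's atrazine or chlorsulfuron response was called as different between the lines (0.00969% and 0% of all genes tested), with 2 and 0 members at an unadjusted p under 0.05 (4.11% and 2.68% of all genes tested).

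Lactofen gave the largest share of called genes in the series, 53.7% of all genes tested in resistant and 59.6% in susceptible leaves, and calls for 4 members in single lines. Of all genes tested 27.6% were called lower in resistant and 30.4% higher in susceptible leaves. For the mean of both lines 1 member was called lower (33.8%). In resistant leaves AmaPaChr09Ag150180 was at 33.2, 30.7 and 19.3 CPM untreated and at 14.4, 17.2 and 18.8 CPM after lactofen, with no overlap. Its log2 change was -0.72 ± 0.21 (SE, n = 3 per group). In susceptible leaves it was at 35.0 ± 7.93 CPM (SD, n = 3) untreated and at 35.0 ± 1.66 CPM after lactofen.

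AmaPaChr06Ag115100 was the other member called lower after lactofen in resistant leaves. It was at 23.5, 15.5 and 28.9 CPM untreated and at 8.73, 5.20 and 14.6 CPM treated, which did not overlap, with a log2 change of -1.25 ± 0.51 (SE, n = 3 per group). The call was lost without lactofen library 1 or 4 or untreated library 1 or 8. In susceptible leaves it was at 23.8, 45.7 and 55.6 CPM untreated and at 119, 33.9 and 58.6 CPM treated. The 2 calls in susceptible leaves, both higher, were the pair with identical counts, at a log2 change of 0.88 ± 0.36 (SE, n = 3 per group) from levels under 5 CPM, and they were lost without lactofen library 7 or untreated library 3. No member was called in the difference between the lines (2.26% of all genes tested), with 4 at an unadjusted p under 0.05 (10.3% of members, 15.5% of all genes tested).

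The rule did not use the difference between untreated leaves of the 2 lines. For the mean of the 3 batches edgeR called no member (3.05% of all genes tested), and it called 2 without untreated resistant library 7 of batch 1 and 1 without untreated susceptible library 3 of batch 3. At an unadjusted p under 0.05 there were 11, of which 8 were lower and 3 higher in the resistant line. That is 28.2% of the members, against 16.3% of all genes tested. This fit counts untreated libraries of different batches as independent, although plant numbers recur and most batch 2 libraries matched their own number in batch 1. Standard errors and p-values for the mean of the batches may therefore be too small. They do not measure a spread between independent plants, so these shares are a description. The smallest edgeR adjusted p was 0.0836, for AmaPaChr02Ag039440 with a log2 difference of -1.12 ± 0.36 (SE), resistant minus susceptible. This member was at 7.59 ± 4.76, 4.65 ± 1.71 and 5.23 ± 1.24 CPM (SD, n = 3) in untreated resistant leaves of batches 1, 2 and 3, and at 16.6 ± 12.1, 9.85 ± 2.76 and 11.5 ± 5.70 CPM in susceptible leaves. Within single batches edgeR called no member (0.0291%, 0.111% and 0.165% of all genes tested in batches 1, 2 and 3), with 2, 0 and 8 at an unadjusted p under 0.05. These are 5.13%, 0% and 20.5% of the members, against 6.19%, 7.53% and 9.79% of all genes tested. DESeq2 called 2 in batch 1 and 1 for the mean of the batches. The median log2 difference over members was -0.17 for the mean of the batches, with 32 of 39 below 0. In batches 1, 2 and 3 it was -0.10, -0.04 and -0.34, with 27, 24 and 32 below 0.

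Members varied together between plants of the same group. The rule did not use differences between plants of a group, but it used the means of these same libraries. Genes that shared a high untreated or a low 2,4-D library of batch 1 could therefore be chosen together. After each library's log2(CPM + 1) was set relative to its group mean, the correlation over 48 libraries had a median of 0.50 over the 741 pairs of members, and 49.4% of the pairs reached 0.5. Among the genes that met the limits on untreated leaves the median was 0.00 and 4.03% of pairs reached 0.5. Between members and other such genes the median was -0.02. Within batches 1, 2 and 3 the median over member pairs was 0.66, 0.31 and 0.47. Without the 3 libraries numbered 7 it was 0.50 over the other 45 libraries and 0.35 in batch 2. All pairs, of members and of other genes, share the same libraries, their depth and scaling, and the pair with identical counts is included. Among untreated libraries the members' median level was highest in resistant library 7 of batch 1, at 0.76 relative to each member's mean. Without that library the rule kept 26 members (66.7%). How much of the correlation was set by the choice of members was not tested, so the contrast with the other genes is a description.

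The strength of this shared variation differed between members. With the mean of the other members, 27 had a correlation of 0.5 or more, from 0.57 to 0.95, the highest being AmaPaChr10Ag175630. The remaining 12 were lower, from -0.61 to 0.48, the lowest being AmaPaChr14Ag216440. The value of 0.5 was chosen after the data were seen and cuts through a continuous range.

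**Figure D5:**
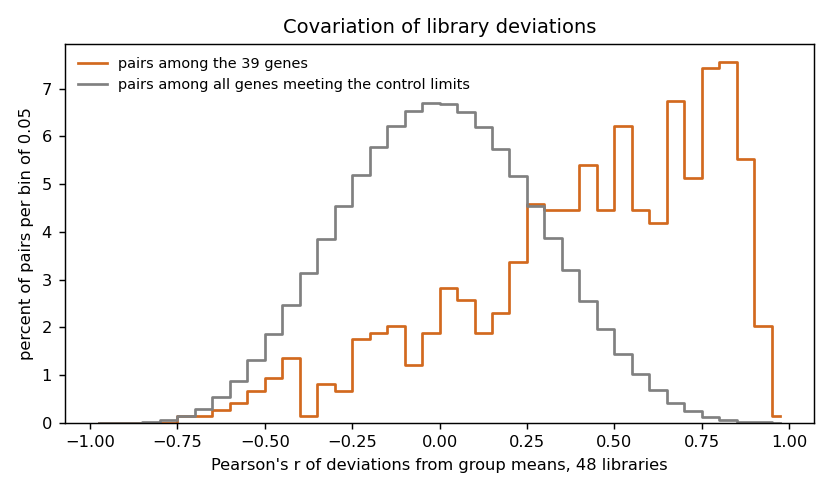
Distribution of the correlation between pairs of genes, computed over 48 libraries on log2(CPM + 1) relative to the group mean, as the percent of pairs in each bin of 0.05. Pairs of members have a median of 0.50, and pairs among the 14303 genes that met the limits on untreated leaves have a median of 0.00. The members were chosen by means of these same libraries, so the contrast is a description.

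By the chromosome number within their identifiers, the members were spread over most of the genome. Models of chromosome number 0 gave 3 members of 68 that met the limits on untreated leaves (4.41%), against 39 of 14303 (0.273%) for the whole genome, and 2 of those 3 are the pair with identical counts. Chromosome numbers 5 and 12 gave none of 914 and 515. AmaPaChr07Ag126880 and AmaPaChr07Ag126890 have neighbouring identifier numbers and varied together, with a correlation of 0.78 over 48 libraries. AmaPaChr09Ag152960 and AmaPaChr09Ag152970 also have neighbouring numbers and had a correlation of 0.06.

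Both genes of the neighbouring pair on chromosome number 7 had their lowest batch 1 level after 2,4-D. The choice of members largely set this, so their levels are a description and nothing particular to the pair. After 2,4-D, 36 of the 39 members in the resistant and all 39 in the susceptible line were lower than after mesotrione. In susceptible leaves AmaPaChr07Ag126880 was at 318 ± 26.7 CPM (SD, n = 3) untreated, 309 ± 32.8 CPM after mesotrione and 166 ± 12.2 CPM after 2,4-D. AmaPaChr07Ag126890 was at 496 ± 69.2, 512 ± 49.6 and 281 ± 13.3 CPM in the same groups. In resistant leaves the untreated spread was wider, at 259 ± 127 and 562 ± 186 CPM for the 2 genes. Their resistant levels were 257 ± 87.2 and 565 ± 198 CPM after mesotrione and 142 ± 18.4 and 315 ± 39.5 CPM after 2,4-D.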

How the data were processed

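The members and lists were chosen with earlier results of these data known. Per the labels' protocols, stranded polyA libraries of total RNA were sequenced from both ends. Trimmomatic, FastQC, STAR and DESeq2 appear, without roles, in the submitters' processing notes. For the build, annotation and counting settings, the sources used here give nothing. The values deposited by the authors are unscaled whole-number counts of reads, and reads of overlapping or near-identical genes may have been split. Of the counts above 0, 99.1% were even, so a fragment usually adds 2.

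Groups were compared by quasi-likelihood F tests (edgeR 4.0.16, R 4.3.3) with TMM factors and edgeR's default low-count filter (20645 genes kept, 1 fit of 48 libraries with 16 group means, 32 residual degrees of freedom, calls at a Benjamini-Hochberg adjusted p under 0.05). The common dispersion had a square root of 0.46. Named members were the 2 with the lowest mean change after 2,4-D and at least 5 CPM in batch 1 controls, and, per other comparison, at most 2 called in each direction with at least 5 CPM in the higher group. Members named for thresholds, correlations or neighbouring numbers were chosen after their values were seen. Pathway lists that select by product name could not be applied.

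Plant numbers come from the titles. Same-numbered libraries had a correlation of deviations over 0.1 in every pair for 8 of 10 treated and control pairs of groups, with lowest values of 0.40 and 0.58 for 2,4-D in the resistant and the susceptible line, 0.05 for chlorsulfuron in the resistant line and -0.22 for lactofen in the susceptible line. Alternatives were DESeq2 1.42.0, other scalings and filters, a 2-fold limit, 1 batch per fit, a replicate block, and each library left out.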

Additional observations from a re-analysis of the deposited data

Results flagged for a closer look

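The response of AmaPaChr00Ag261850 and AmaPaChr00Ag262320 to mesotrione differed between the lines in a test of the difference itself, by -2.80 on the log2 scale for each, resistant minus susceptible (edgeR adjusted p = 0.00407, and 0.0916 with batch 1 fitted alone). Their identical counts make this 1 measurement, and the batch 1 untreated leaves in it, at 30.9 ± 13.7 CPM (SD, n = 3) in the resistant line for AmaPaChr00Ag261850 against 2.58 and 2.85 CPM in batches 2 and 3, also set the 2,4-D value by which the models were chosen.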

How the results depend on the processing

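The counts of members called lower after 2,4-D, 11 in the resistant and 20 in the susceptible line, depended on the processing. The resistant count was 23 with DESeq2 (2.69% of all genes tested) and 6 with 1 batch alone in the fit (1.74%). It was 3 with total counts in place of TMM factors (0.242%) and 3 with a 2-fold limit. It was 7 without the 3 susceptible libraries numbered 7 of batch 2 (0.502%), and 0 to 25 with 1 library left out. The susceptible count was 11 with 1 batch alone (3.31%), 9 with total counts (0.911%), 5 with a 2-fold limit and 2 to 20 with 1 library left out. With 1 batch alone both counts fell while the share over all genes tested rose from 0.843% and 1.69%. The share at the 2-fold limit is not given here. The replicate block gave 19 and 32. The block changed other counts as follows: 2 members for atrazine in the resistant line, 1 for chlorsulfuron in each line and 1 for the line difference after lactofen, where none had been called, and 3 in each line for lactofen, where 2 had been called, with no change for the other comparisons of responses, and no named member lost or gained a call under it.

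With 1 batch alone, edgeR called 2 and 6 members after atrazine in the resistant and the susceptible line, 1 after chlorsulfuron in each, 1 and 0 after lactofen, and 0 for the line difference after mesotrione. After lactofen the resistant count of 2 was 1 with no filter, with the size factors of DESeq2, with total counts and with a 2-fold limit, and the susceptible count was 0 with a 2-fold limit. DESeq2 called 2 members between untreated lines in batch 1 and 1 over the batches. With 1 library left out, counts ran from 0 to 2 for mesotrione over both lines (2 without untreated resistant library 5), 0 to 1 for atrazine in the susceptible line (1 without treated library 5) and 1 to 3 for lactofen in the resistant line (1 without treated or untreated library 1). They ran from 0 to 4 for lactofen in the susceptible line (4 without treated library 5, 0 without treated library 7 or untreated library 3), 0 to 2 for its line difference (2 without susceptible treated library 5) and 0 to 2 for untreated lines over the batches (2 without resistant library 7 of batch 1, 1 without susceptible library 3 of batch 3). For these counts, and for the block's counts other than 2,4-D, the share over all genes tested is not given here. Nothing is read from them, and the cause of their movement was not tested.

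The rule itself chose 78 genes with TMM-scaled CPM (36 of the 39 kept), 64 with batch 2 controls for 2,4-D (16 kept), 6 with a limit of 0.3 for the other herbicides, 41 without the 3 susceptible libraries numbered 7 (35 kept; tried after seeing the data) and 27 to 56 with 1 library left out. The 27, with 26 of the 39 kept, came without untreated resistant library 7 of batch 1, and the 56, with 38 kept, without library 5. The line difference of the 2,4-D response ran from -0.16 (without untreated susceptible library 6) to 1.20 for AmaPaChr02Ag039440, and from -0.31 (without untreated resistant library 5) to 0.55 for AmaPaChr03Ag063050, where it was also below 0 without untreated susceptible library 7 (-0.10). With 3 libraries a group and a common spread of 0.46, small differences stay below detection. Of the recomputed counts, 312 were within 1.5 times the main count, many of them 0 against 0, and 52 moved further, among them 12 of 15 for the resistant and 9 of 15 for the susceptible 2,4-D count.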
